A study of Mus musculus with 18 samples.

Results

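Tcstv1, Tcstv3, AF067061 and Zfp352 are marker genes of the mouse 2-cell embryo, and they make up 4 of the 24028 genes of the count table. They were chosen by name, from the symbol of each row, with earlier results of these data known. All 4 had enough counts to be tested, but only through the induced mouse Dux libraries. No other library held more than 5 counts of any of them. Tests in the other lines therefore concern genes admitted by that group alone. The data are counts of polyadenylated RNA in 18 libraries of C2C12 cells, mouse myoblasts (muscle precursors), in 6 groups of 3. The design asks what mouse Dux and human DUX4 each switch on in the same kind of mouse cell, beside a luciferase control.

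Each line carried 1 doxycycline-inducible transgene under puromycin selection. The mouse Dux line held a codon-altered mouse Dux, the human DUX4 line a codon-altered human DUX4, and the control line firefly luciferase. Induction meant 36 hours in doxycycline (2 µg/ml), and uninduced cultures of the same line were harvested at 36 hours without it. Each line was a single clone, so between lines the transgene and the clone cannot be told apart. The 3 libraries of a group came from separate cultures of that clone, and p-values therefore measure the spread between cultures.

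Dux and DUX4 are transcription factors with a pair of homeodomains, the parts that bind DNA. In the mouse embryo, Dux is present when the embryo's own genome is first transcribed at the 2-cell stage, and genes that peak then serve as markers of that stage. Tcstv genes form a cluster of short, closely related coding genes known from the 2-cell stage. Zfp352 encodes a zinc finger protein and is likewise known from 2-cell embryos. None of the 4 is a gene of muscle precursors.

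The Tcstv genes lie together on chromosome 13 of GRCm38 (mm10). In the GENCODE annotation Tcstv1 runs from 119893388 to 119894785 on the minus strand, AF067061 from 120263114 to 120264517 on the plus strand, and Tcstv3 from 120316878 to 120318178 on the plus strand. Zfp352 lies on chromosome 4 from 90218820 to 90225702 on the plus strand. Each of the 4 has a model of 2 exons in which exon 1 is untranslated and exon 2 holds all coding bases. The coding length was 513 bases in Tcstv1 and AF067061, 507 in Tcstv3 and 1653 in Zfp352. The intron was 522 or 523 bases in the Tcstv genes and 4607 bases in Zfp352.

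The start of the Tcstv coding sequences is shown because it makes plain how alike the 3 genes are, which bears on how reads can be assigned to them. The first 120 coding bases are given from the GENCODE transcripts on GRCm38, and capitals mark the 4 positions at which the 3 sequences are not all the same.
Tcstv1: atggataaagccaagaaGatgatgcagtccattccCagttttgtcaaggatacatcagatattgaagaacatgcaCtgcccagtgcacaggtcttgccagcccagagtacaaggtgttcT
AF067061: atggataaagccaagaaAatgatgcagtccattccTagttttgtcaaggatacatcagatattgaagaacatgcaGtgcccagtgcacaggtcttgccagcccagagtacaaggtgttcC
Tcstv3: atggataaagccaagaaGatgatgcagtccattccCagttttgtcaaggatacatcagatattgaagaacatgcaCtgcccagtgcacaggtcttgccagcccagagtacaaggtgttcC
Over the whole coding sequence Tcstv1 and AF067061 were 95.32% identical, with 24 differing bases. Tcstv1 and Tcstv3 were 94.48% identical (28 differing bases), and AF067061 and Tcstv3 95.86% (21 differing bases). Among 21901 mouse coding sequences, 9 other genes matched a Tcstv gene at 50% identity or more over at least 70% of both lengths, and all of them were on chromosome 13. Zfp352 had 0 relatives by the same rule. Of the 50-base windows of the 2-exon models, 74.7% in Tcstv1, 68.63% in Tcstv3 and 60.46% in AF067061 occurred in no other gene, against 92.91% in Zfp352. Windows found in another of the 3 Tcstv genes made up 20.94%, 22.6% and 10.1%, so part of the sharing is with genes outside the 3. Of 100-base windows, 93.56% in Tcstv1, 92.21% in Tcstv3, all in AF067061 and 99.36% in Zfp352 occurred in no other gene. Short reads could therefore be shared among the Tcstv genes and with their relatives, which touches both the split of counts between the 3 and their sum, and longer reads less so. No source used here says how the authors' counting treated such reads.

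Promoters are shown for AF067061 and Zfp352, the 2 of the 4 members found in the RefSeq promoter table (GRCm38.p6), because a DNA-binding factor was induced. Each is the 250 bases just before the annotated start, on the plus strand, at chr13:120262845-120263094 and chr4:90218570-90218819. Capitals mark AATCA, a core of the known DUX4 motif, and TAATCC and TATAA, all on either strand. The last 2 were chosen after the sequences were seen, and TAATCC and TATAA overlap once in AF067061.
AF067061: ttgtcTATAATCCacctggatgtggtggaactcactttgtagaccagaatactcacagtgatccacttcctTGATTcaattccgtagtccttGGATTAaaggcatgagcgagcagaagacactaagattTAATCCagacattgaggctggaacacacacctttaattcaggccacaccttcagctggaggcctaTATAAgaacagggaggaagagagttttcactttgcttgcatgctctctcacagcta
Zfp352: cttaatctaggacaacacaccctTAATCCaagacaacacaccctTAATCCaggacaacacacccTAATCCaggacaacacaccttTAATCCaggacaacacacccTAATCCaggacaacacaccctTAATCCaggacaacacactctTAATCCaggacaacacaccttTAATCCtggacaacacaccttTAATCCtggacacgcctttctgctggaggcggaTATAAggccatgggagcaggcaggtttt
The Zfp352 promoter is a tandem repeat in which TAATCC stands 9 times, at steps of 21 bases (6 times) or 20 bases (2 times). At least 1 TAATCC was present in 6.25% of the 32851 promoters of the table, and as many as 9 in 1 promoter (0.003%), that of Zfp352. AF067061 held TAATCC 3 times, 2 of them on the printed strand. AATCA was found once in AF067061, on the other strand, and 0 times in Zfp352, against 33.69% of all promoters. An arrangement of 2 AATCA cores facing each other with 1 base between was found in neither promoter, and in 0.03% of all. TATAA stood once in Zfp352 and 2 times in AF067061, and 22.78% of promoters held it. The longest run shared by both promoters was acacacctttaat, of 13 bases, which 38 promoters (0.1157%) held. These matches describe the letters of the windows.

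Total counts ran from 11010586 to 17179642 per library, and CPM below is the usual depth-scaled count, with TMM factors. Library 1 of induced mouse Dux stood apart: 6.53% of tested genes lay more than 1.5-fold from the mean of the other libraries of its group, against 0.948% and 1.25% in libraries 2 and 3 and 0.0956% to 0.618% in the other groups. The 7 myoblast markers summed to 748 to 3045 CPM over all libraries, and to 1452 to 1596 in induced against 1550 to 1573 in uninduced mouse Dux. The sum hides unequal members: in mouse Dux, Des stood at 948 CPM induced and 718 uninduced, Cdh15 at 54.5 and 190, Myod1 at 88.1 and 123 and Pax7 at 9.30 and 15.1. In human DUX4, Myod1 stood at 3.67 CPM induced and 26.2 uninduced and Chrna1 at 840 and 363. Myf5 was near 0 in the mouse Dux line (0.0438 ± 0.0759 CPM induced and 0.258 ± 0.123 uninduced, SD, n = 3), and Pax7 was at 0 in induced human DUX4. Among markers of other cell types, the leukocyte gene Cd68 stood at 20.9 CPM in induced and 1.74 in uninduced human DUX4, and the endothelial gene Cdh5 at 23.4 and 25.4 CPM in the luciferase line, against at most 0.145 in the other lines. Of 5 markers of pluripotent embryonic cells, Pou5f1 and Zfp42 were at 0 in all 18 libraries. The list summed to 8.94 to 11.8 CPM in induced and 0.509 to 0.638 in uninduced mouse Dux, mostly from Esrrb (7.27 CPM) and Sox2 (1.98 CPM) in the induced cultures. The part of these markers in the results below was not tested.

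All 4 genes rose after mouse Dux was induced, from a handful of counts to at least 475 in every library. AF067061 reached the highest level (587 ± 38.5 CPM, SD, n = 3), followed by Tcstv3 (301 ± 8.81), Tcstv1 (241 ± 31.1) and Zfp352 (35.9 ± 1.23). No uninduced mouse Dux library held more than 3 counts of any of them. In RNA from whole cultures, more cells that express a gene and more RNA per cell cannot be told apart.

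Tcstv1 had 3143, 3340 and 3642 counts in induced mouse Dux libraries 1, 2 and 3, or 207, 251 and 267 CPM. Uninduced, the same line had 1, 2 and 1 counts. The groups lay far apart, with library 1 the lowest of the induced cultures. Set against depth, 10125 induced and 4 uninduced counts gave a ratio of 2683 (exact 95% interval 1048 to 9850), an interval that covers counting error only. The fitted change was 11.27 on the log2 scale (SE 0.219, edgeR quasi-likelihood test, Benjamini-Hochberg adjusted p = 4.74e-19). For edgeR, SE here and below is the size of the fitted change divided by the square root of the test's F value. It is no guide to precision where a group has next to no counts.

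Tcstv3 had 4444, 4007 and 4230 counts (292, 301 and 310 CPM) in the induced libraries and 1, 2 and 0 in the uninduced ones. Its induced levels were the most even of the Tcstv genes, with a coefficient of variation of 2.93% against 12.9% for Tcstv1 and 6.57% for AF067061. The ratio of 12681 to 3 counts was 4481 (1533 to 21732), and the fitted log2 change was 11.96 (SE 0.184, adjusted p = 1.22e-20).

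AF067061 had 9493, 7289 and 8037 counts (624, 547 and 589 CPM) in the induced libraries and 3, 2 and 1 in the uninduced ones. Unlike Tcstv1, it was highest in library 1. The ratio of 24819 to 6 counts was 4385 (2014 to 11950), with a fitted log2 change of 12.01 (SE 0.174, adjusted p = 4.93e-21).

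Zfp352, the zinc finger gene, had 529, 475 and 508 counts (34.8, 35.7 and 37.2 CPM) in the induced libraries and 0, 0 and 1 in the uninduced ones. It was the lowest of the 4 in every induced library. The ratio of 1512 to 1 counts was 1603 (287 to 63352), so its size is known only roughly. The fitted log2 change was 10.20 (SE 0.323, adjusted p = 2.3e-13).

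**Figure D1:**
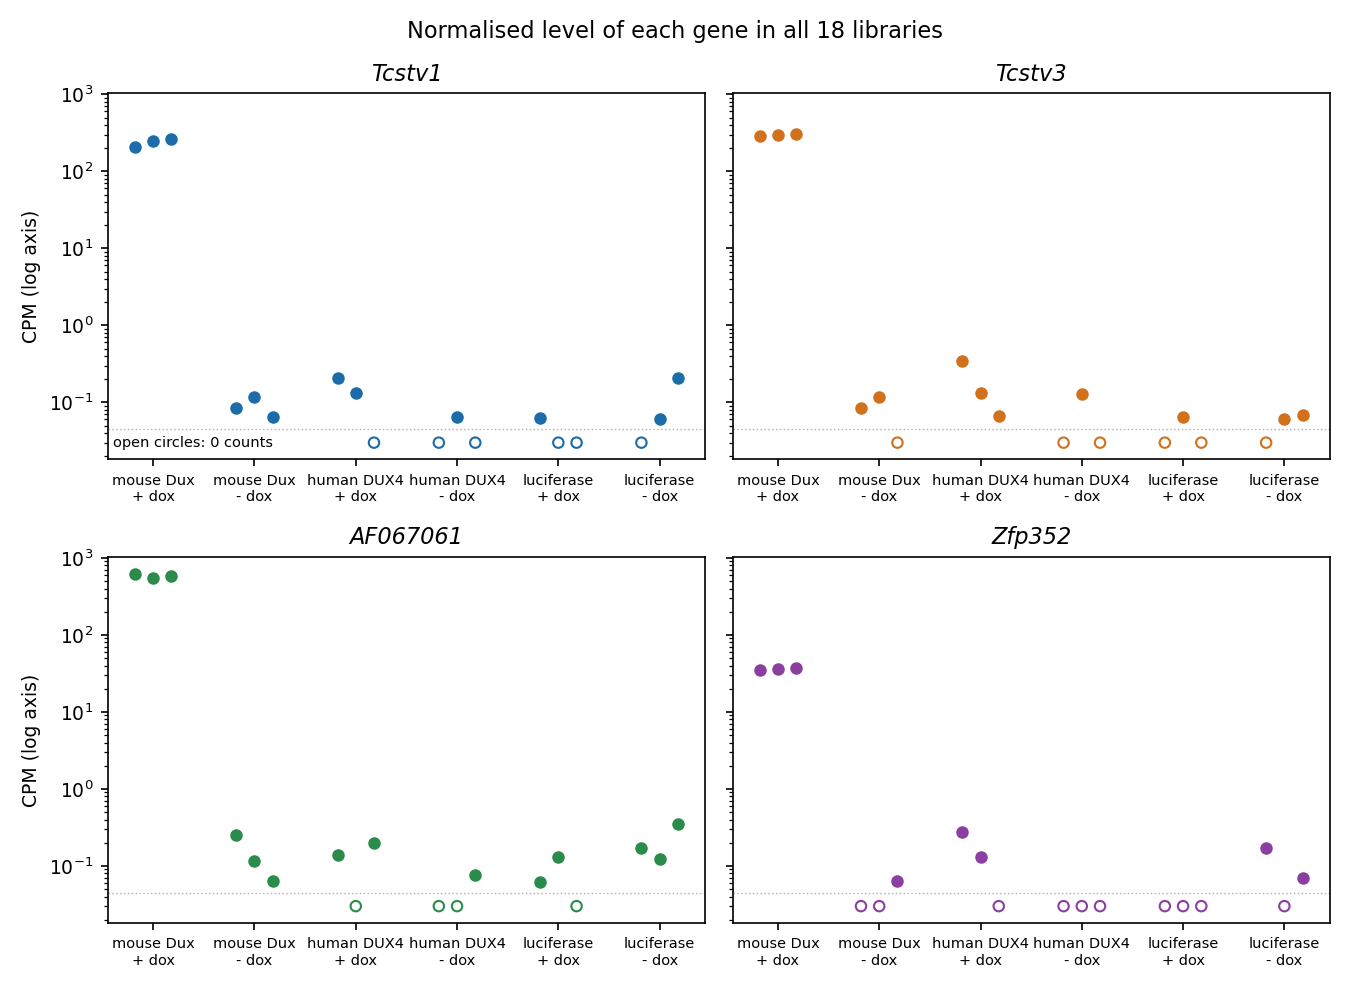
CPM on a log axis (vertical) of Tcstv1, Tcstv3, AF067061 and Zfp352 in each of the 18 libraries, by group (horizontal), 1 point a library and open circles for 0 counts. The 3 induced mouse Dux libraries (+ dox) hold 207 to 624 CPM of the Tcstv genes and 34.8 to 37.2 CPM of Zfp352, far above the other 15 libraries.

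These 4 calls are to be read against a wide response: after mouse Dux induction 34.1% of the 13602 tested genes were called higher and 34.8% lower at an adjusted p under 0.05. By level the members spread over a wide range of the induced transcriptome. AF067061 ranked 213, Tcstv3 517, Tcstv1 687 and Zfp352 5786 among all genes by mean induced CPM. Levels per kilobase of the longest annotated transcript allow for length, but not for reads shared between genes. That transcript has 1 exon in Tcstv1 and AF067061 and 2 exons in Tcstv3 and Zfp352. The induced level was 500 ± 32.8 FPKM for AF067061, 386 ± 11.3 for Tcstv3, 189 ± 24.3 for Tcstv1 and 15.8 ± 0.54 for Zfp352 (SD, n = 3). Library values of neighbours in this order did not overlap: the lowest AF067061 value was 466 and the highest Tcstv3 value 398, the lowest Tcstv3 value was 375 and the highest Tcstv1 value 208. With the length of the 2-exon model instead, an alternative chosen after seeing the data, AF067061 stood at 666 and Tcstv1 at 276 FPKM, and the order was the same.

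Summed over Tcstv1, Tcstv3 and AF067061, which needs no split of reads shared among the 3, though not of those shared with relatives, the induced libraries held 17080, 14636 and 15909 counts. That was 0.102% ± 0.00246 (SD, n = 3) of all counts, or 1129 ± 33.7 CPM. The sum fitted as 1 gene changed by 11.88 on the log2 scale (SE 0.184, adjusted p = 1.41e-20).

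The split of this sum is given for each induced culture. AF067061 took 55.6% of it in library 1 (exact 95% interval 54.8 to 56.3), 49.8% in library 2 (49.0 to 50.6) and 50.5% in library 3 (49.7 to 51.3). Tcstv1 took 18.4% in library 1 (17.8 to 19.0), against 22.8% (22.1 to 23.5) and 22.9% (22.2 to 23.6) in libraries 2 and 3. Tcstv3 took 26.0%, 27.4% and 26.6%. The intervals of library 1 for AF067061 and Tcstv1 do not overlap those of libraries 2 and 3, but they cover counting error only and not the spread between cultures. Shares of 1 sum also trade off against each other, and library 1 is the library that stood apart over all genes, so no difference between cultures was tested.

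**Figure D2:**
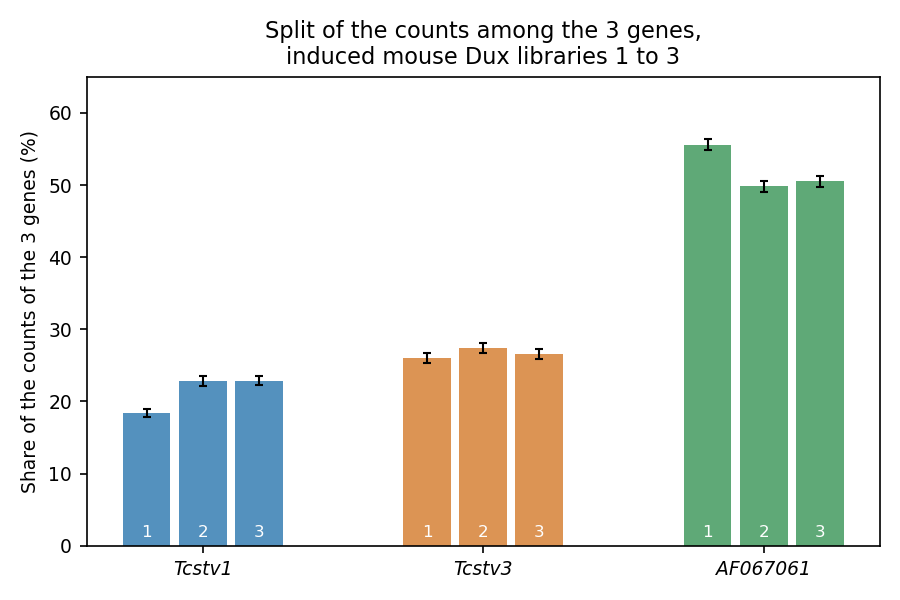
Share in percent (vertical, from 0) of the summed counts of Tcstv1, Tcstv3 and AF067061 that each gene took in induced mouse Dux libraries 1, 2 and 3, with exact 95% intervals as error bars. In library 1 AF067061 is higher (55.6%) and Tcstv1 lower (18.4%) than in libraries 2 and 3.

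The relatives of the Tcstv genes rose after mouse Dux as well. Of the 9 relatives, 4 are in the count table (Gm20767, B020031M17Rik, BC147527 and AF067063), and the other 5 were not analysed here. Their coding sequences were 93.57% to 95.52% (Gm20767), 89.47% to 90.53% (B020031M17Rik), 87.06% to 90.53% (BC147527) and 80.0% to 81.62% (AF067063) identical to the 3 Tcstv genes. All 4 were called higher, beside 34.1% of all tested genes, with a median fitted log2 change of 11.25 beside -0.00528 over all tested genes. AF067063, B020031M17Rik and BC147527 held at most 2 counts in any other group. They were thus admitted to the test by induced mouse Dux alone and could only be called higher. Gm20767 had 13332, 11206 and 12512 induced counts (877, 841 and 917 CPM) against 20 over the uninduced group, more than any of the 4 members, and its log2 change was 10.91 (SE 0.126, adjusted p = 2.03e-22). B020031M17Rik reached 80.4 ± 11.5 CPM and BC147527 79.4 ± 10.5 CPM, each from 1 uninduced count. AF067063 reached 18.7 ± 2.71 CPM from 0 uninduced counts, 281-fold higher against a floor of 3 counts over the group. The 3 Tcstv genes and these 4 together made up 2186 ± 77.0 CPM in induced mouse Dux and 0.8 ± 0.262 in uninduced mouse Dux (SD, n = 3).

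The relatives did not all stand the same way in library 1. AF067063, B020031M17Rik and BC147527 were 1.27, 1.27 and 1.24 times the mean of libraries 2 and 3 there, and AF067061 1.10 times. Tcstv1 was 0.799 times that mean, Tcstv3 0.957, Zfp352 0.955 and Gm20767 0.997. These ratios were not tested, since library 1 has no replicate.

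**Figure D3:**
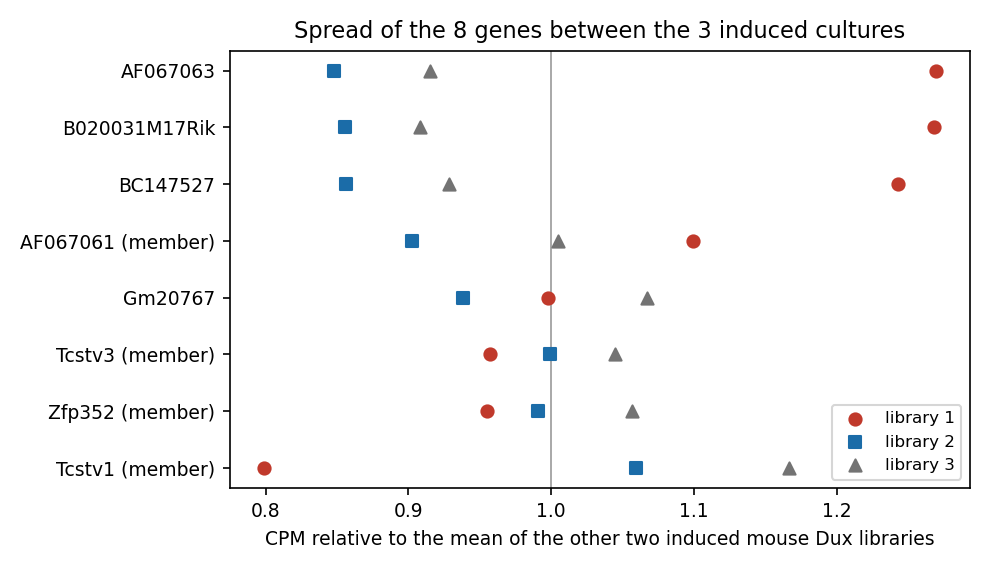
CPM of each gene in induced mouse Dux libraries 1 (circle), 2 (square) and 3 (triangle), divided by the mean of the other libraries of that group (horizontal, 1 means equal), for the 4 members and the 4 relatives of the Tcstv genes. Library 1 ranges from 0.799 (Tcstv1) to 1.27 (AF067063).

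Around the Tcstv genes, 14 other genes of the count table were examined (the 10 nearest before Tcstv1 and those between Tcstv1 and Tcstv3, with 0 table genes after Tcstv3), and 10 of them were tested. After mouse Dux 7 rose and 2 fell, beside 34.1% of all tested genes higher and 34.8% lower. The median log2 change was 2.05, beside -0.00528 over all tested genes. The 4 relatives are among the 7, as is Nim1k, a protein kinase gene 183 kb before Tcstv1. AF067063, B020031M17Rik, BC147527 and Nim1k held at most 7 counts in any other group. Induced mouse Dux alone admitted them to the test. Nim1k had 57 induced and 7 uninduced counts, a ratio of 8.63 (3.93 to 22.4), and reached 1.36 ± 0.153 CPM. Its induced level was thus below that of each of the Tcstv genes and relatives, the lowest of which was AF067063 at 18.7 CPM. Between the members lay also Gm21188, which had 0 counts in the mouse Dux line.

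**Figure D4:**
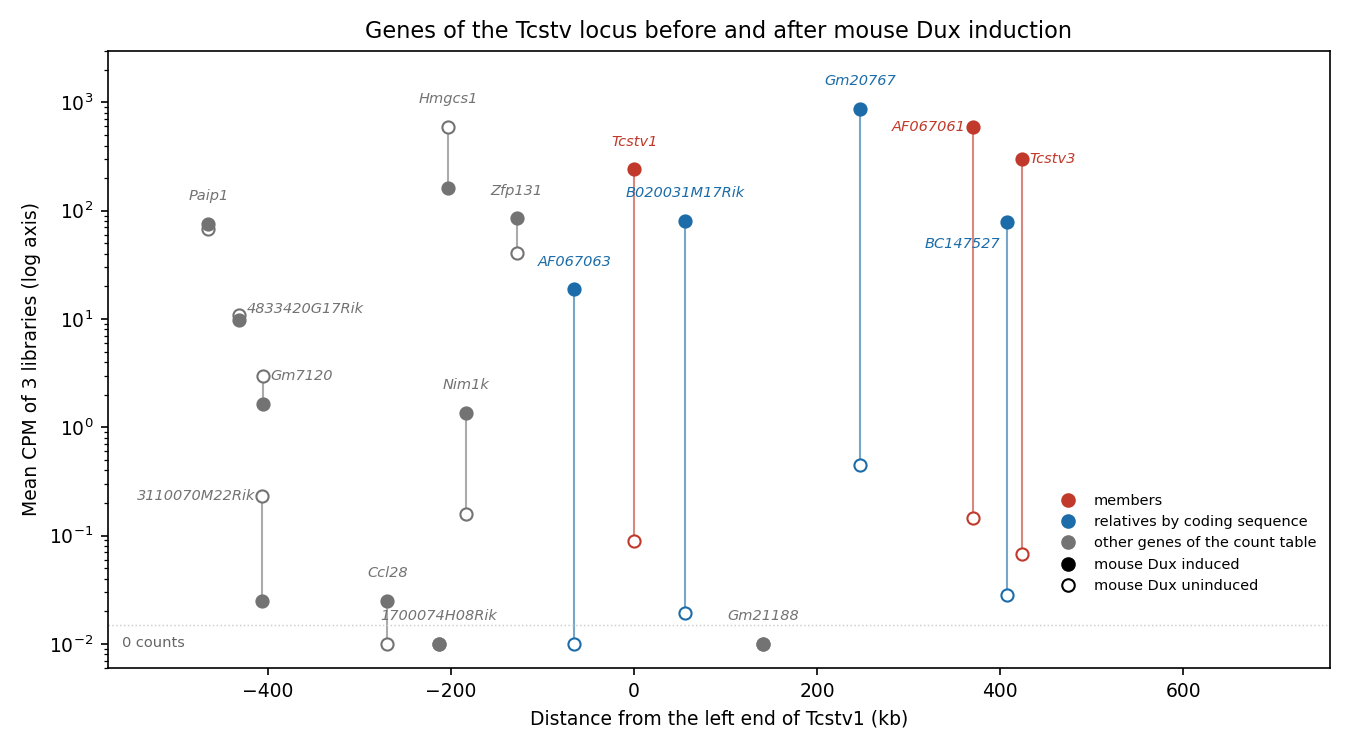
Mean CPM of 3 libraries on a log axis (vertical) of the count table's genes by distance in kb from the left end of Tcstv1 (horizontal), uninduced (open) and induced (filled) mouse Dux joined by a line. Members and relatives rise from under 1 CPM to between 18.7 (AF067063) and 878 CPM (Gm20767).

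Zfp352 has a less crowded neighbourhood. Of the 20 nearest table genes, 10 on each side, 10 were tested. After mouse Dux 5 rose and 1 fell, beside 34.1% of all tested genes higher and 34.8% lower. The median log2 change was 0.35, beside -0.00528 over all tested genes. Among the genes that rose, Gm12633, 141 kb after the start of Zfp352, had 37 counts in induced and 0 in uninduced mouse Dux. That was 13.1-fold higher against a floor of 3 counts. Izumo3, of the gene family of the sperm-egg fusion protein Izumo1, lies 1926 kb after Zfp352. It had 115 counts against 0, 40.6-fold higher against the same floor. Both were at 0 in all 12 libraries of the other lines. They thus entered the test through induced mouse Dux alone and could only be called higher.

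Human DUX4 left the 4 genes near the limit of detection, and they had passed the filter on low counts through induced mouse Dux only. Zfp352 was the 1 of 4 called higher, against 34.4% of all tested genes called higher and 33.1% lower in that line, and it rested on 6 counts. Tcstv1 had 3, 2 and 0 counts in induced human DUX4 and 0, 1 and 0 in uninduced human DUX4. Tcstv3 had 5, 2 and 1 against 0, 2 and 0, and AF067061 had 2, 0 and 3 against 0, 0 and 1. For all 3 genes the groups overlap.

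The ratio was 5.04 for Tcstv1 (exact 95% interval 0.564 to 239), 4.03 for Tcstv3 (0.805 to 39.0) and 5.04 for AF067061 (0.564 to 239), each interval including 1. Fitted log2 changes were 1.98 (SE 1.43, adjusted p = 0.231), 1.83 (SE 0.942, adjusted p = 0.0942) and 1.98 (SE 1.18, adjusted p = 0.148). A change was therefore not detectable for the single genes at this depth. Summed into 1 gene, the 3 passed the test, with 18 counts against 4 and a log2 change of 2.08 (SE 0.766, adjusted p = 0.0219). By library that was 10, 4 and 4 counts induced against 0, 3 and 1 uninduced, so induced library 1 gave more than the other induced libraries together. Uninduced luciferase held 3, 4 and 9 counts of the same sum. Of their 4 relatives 0 were called by edgeR, also 0 at an unadjusted p under 0.05, with a smallest adjusted p of 0.231 and at most 16 counts (Gm20767, against 13 uninduced).

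Zfp352 had 4, 2 and 0 counts in induced and 0, 0 and 0 in uninduced human DUX4, 2.02-fold higher against the floor of 3 counts. The groups share the value 0, in library 3 of the induced cultures. The fitted log2 change, which for a group at 0 depends on the prior count, was 4.12 (SE 1.59, adjusted p = 0.032). The call was lost without induced library 1 (adjusted p = 0.132) or 2 (0.0541), and without uninduced library 1 (0.0683), 2 (0.0672) or 3 (0.0597).

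The luciferase line, which controls for doxycycline, called 0 of the 4 genes, with 14.7% of tested genes called higher and 16.4% lower there. At an unadjusted p under 0.05 the edgeR count was likewise 0. Tcstv1 had 1, 0 and 0 counts induced and 0, 1 and 3 uninduced, with a ratio of 0.249 (0.00506 to 2.52). Tcstv3 had 0, 1 and 0 against 0, 1 and 1, and AF067061 1, 2 and 0 against 3, 2 and 5, a ratio of 0.299 (0.0529 to 1.16). Zfp352 had 0, 0 and 0 counts induced and 3, 0 and 1 uninduced. Against a floor of 3 counts that was 1.34-fold lower, which is no confidence limit. The edgeR change was not called (adjusted p = 0.131). Over the 4 genes this line held 5 induced and 20 uninduced counts.

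The groups may also be set side by side. The 4 genes together had 49137 counts in induced mouse Dux, 24 in induced human DUX4, 20 in uninduced luciferase, 14 in uninduced mouse Dux, 5 in induced luciferase and 4 in uninduced human DUX4. Induced human DUX4 thus held about as many as uninduced luciferase, and the library values of those groups overlap. Between the induced cultures of mouse Dux and human DUX4, counts per depth differed by a ratio of 2135 for Tcstv1 (914 to 6576), 1671 for Tcstv3 (848 to 3872), 5233 for AF067061 (2242 to 16118) and 266 for Zfp352 (122 to 725). Those 2 groups are 2 clones as well as 2 transgenes.

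The difference between responses was tested directly, as the log2 response of 1 line minus that of another. Mouse Dux minus human DUX4 was called higher for 3 of 4 genes (32.9% of all tested genes): 9.29 for Tcstv1 (SE 3.6, adjusted p = 0.03), 10.13 for Tcstv3 (SE 2.17, adjusted p = 0.000416) and 10.03 for AF067061 (SE 3.07, adjusted p = 0.00764). These edgeR calls rest on the 1 uninduced human DUX4 library with any count of the gene. Without library 2, adjusted p was 1 for Tcstv1 and 0.999 for Tcstv3, and without library 3 it was 1 for AF067061. In each case the group is then at 0, while the fitted differences were 7.40, 7.45 and 8.12. For Zfp352, whose uninduced human DUX4 group is at 0, the edgeR difference of 6.08 was not called (adjusted p = 0.974). Its SE of 78 comes from the F value at a group of 0 counts and does not measure precision. The DESeq2 Wald test gave 7.07 for Zfp352 (adjusted p = 0.000176). By the same test the difference was 9.17 for Tcstv1 (adjusted p = 8.76e-09), 10.11 for Tcstv3 (adjusted p = 4.32e-12) and 9.86 for AF067061 (adjusted p = 8.76e-11). Summed into 1 gene, the Tcstv genes differed by 9.80 (SE 1.68, adjusted p = 4.29e-05).

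Mouse Dux minus luciferase was called higher for all 4 genes (30.4% of all tested genes). The difference was 12.93 for Tcstv1 (adjusted p = 3.72e-05), 12.75 for Tcstv3 (adjusted p = 0.000149), 13.63 for AF067061 (adjusted p = 6.97e-09) and 13.66 for Zfp352 (adjusted p = 5.05e-05). Human DUX4 minus luciferase was called higher for 2 of 4 (28.3% of all tested genes), with 3.60 for AF067061 (adjusted p = 0.0427) and 7.58 for Zfp352 (adjusted p = 0.0112). The Zfp352 differences of 13.66 and 7.58 involve groups at 0 counts, so their size depends on the prior count, and the luciferase part is an uncalled change from 4 counts to 0. For AF067061 neither part was called by edgeR alone: 1.98 after human DUX4 (adjusted p = 0.148) and -1.62 in luciferase (adjusted p = 0.157). The AF067061 call was lost in 7 of 12 fits that left out 1 library. These were the fits without human DUX4 induced library 1 (adjusted p = 0.0878) or 3 (0.168), uninduced library 1 (0.0955) or 2 (0.0943), luciferase induced library 1 (0.0629) or 3 (0.0782), or luciferase uninduced library 3 (0.0898). The Zfp352 call was lost without luciferase uninduced library 1 (adjusted p = 0.0605).

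How low the other 15 libraries were is best seen against the induced level. They held 15 counts of Tcstv1, 16 of Tcstv3, 25 of AF067061 and 11 of Zfp352 in all, at most 3, 5, 5 and 4 in any library. That is 0.0271%, 0.0231%, 0.0184% and 0.133% of the level in induced mouse Dux. Genes of the Zscan4 family, telomere-associated markers of the 2-cell stage, gave a reference with many more counts. The 5 Zscan4 genes stood at 0.0153% to 0.0207% of their induced level in uninduced mouse Dux, 0.0178% to 0.0205% in induced human DUX4, 0.0123% to 0.0144% in uninduced human DUX4, 0.0155% to 0.0188% in induced luciferase and 0.0145% to 0.0178% in uninduced luciferase. The 5 groups from 3 clones thus lay between 0.0123% and 0.0207%, and the range of induced human DUX4 was wholly above that of uninduced human DUX4. These genes, chosen after their values were seen, are among the lowest by this measure: the 35 genes of the 2-cell list with at least 1000 induced counts ran from 0.0163% to 46.8%, with a median of 0.0467%, and 22 of them lay under 0.1%. Tcstv1, Tcstv3 and AF067061 lay between 0.00379% and 0.0598% in these groups, on both sides of the Zscan4 values. Zfp352 stood above the Zscan4 values in induced human DUX4 (0.376%), uninduced luciferase (0.231%) and uninduced mouse Dux (0.0624%), from 6, 4 and 1 counts, and at 0 in the other 2 groups. Where these few reads came from was not tested.

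**Figure D5:**
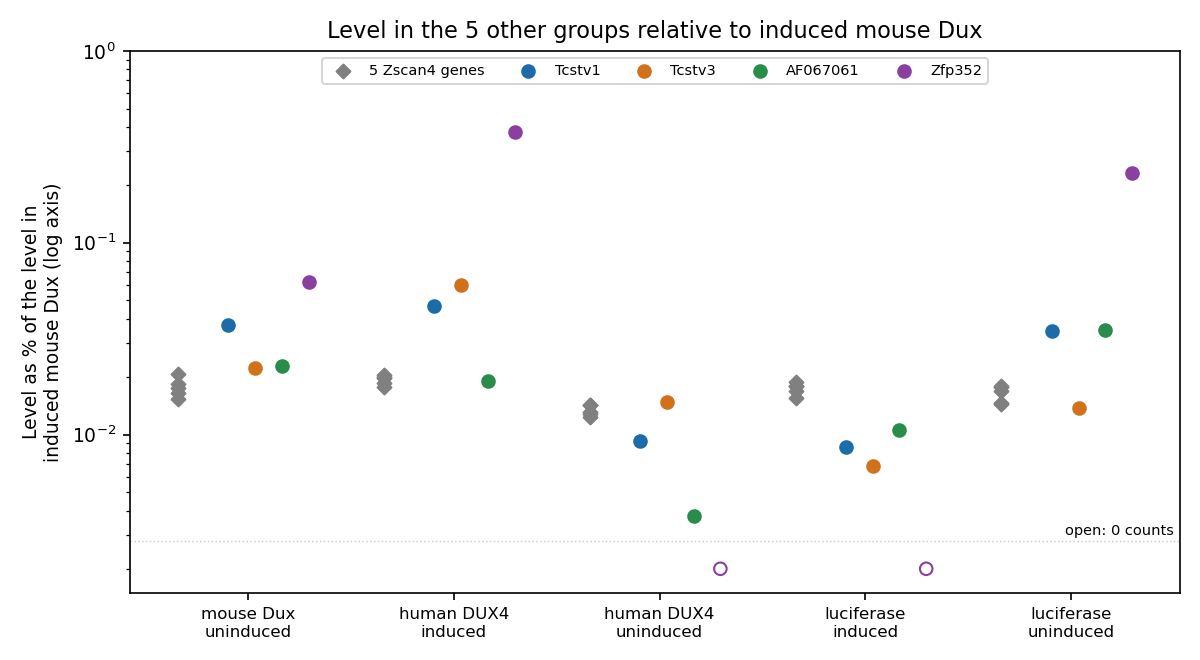
Level in each of the 5 groups other than induced mouse Dux as a percentage of the induced mouse Dux level (vertical, log axis), for the 4 members (circles) and the 5 Zscan4 genes (grey diamonds), open circles for 0 counts. Zscan4 genes stay between 0.0123% and 0.0207%, and Zfp352 is highest in induced human DUX4 at 0.376%.

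Among other 2-cell-stage genes the 4 members were neither the highest nor the lowest. A list of 56 such genes was used, of which 45 are in the table and 43 were tested. After mouse Dux 42 of 43 rose and 0 fell, beside 34.1% of all tested genes higher and 34.8% lower. The median log2 change was 10.91, beside -0.00528 over all tested genes. The list was chosen with earlier results of these data known. Genes such as Tdpoz1 and Ubtfl1 were also admitted to the test by induced mouse Dux alone. This count is therefore a description only. The list includes Gm20767, a relative of the Tcstv genes. The 5 with the highest induced CPM were Gm4340 (28805 ± 3420, SD, n = 3), Gm13057 (20040 ± 1661), Zscan4c (18695 ± 609), Zscan4f (18629 ± 651) and Zscan4a (10379 ± 313), all with near-identical copies in the genome. Of the 45, 21 had a higher mean induced CPM than AF067061, 24 than Tcstv3 and Tcstv1 and 33 than Zfp352.

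After human DUX4 the same list split: 20 of 43 rose, 1 fell and 22 were not called. Of all tested genes 34.4% were called higher and 33.1% lower. The list's median change was 0.94, beside 0 over all tested genes. Some calls rest on few counts of genes admitted by induced mouse Dux alone, such as Tdpoz5 (4 counts against 0) and Tdpoz4 (6 against 0). The count of calls is therefore a description only. Gm13057 rose by 5.95 (SE 0.221, adjusted p = 9.41e-15) to 178 ± 6.10 CPM, and Gm4340 by 1.42 (SE 0.283, adjusted p = 0.000183). Zscan4c rose by 0.47 (SE 0.14, adjusted p = 0.0103) and Zscan4f by 0.47 (SE 0.161, adjusted p = 0.0154), while Zscan4a, with 86 against 61 counts, had a change of 0.50 and was not called (adjusted p = 0.0505). In the luciferase line 8 of the 43 were called higher and 0 lower, beside 14.7% and 16.4% of all tested genes. The median there was 0. Gm2022, Gm2016, Gm5662, Gm8300, Gm21319 and Gm5039 were called higher in both lines. Their changes were 1.03, 0.94, 0.95, 0.74, 1.44 and 1.92 after human DUX4. In luciferase they were 1.13, 1.05, 1.06, 0.92, 1.11 and 1.09. For these genes the difference between the responses was not examined.

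Genes whose log2 CPM (with 1 added) ran most like that of the members over the 18 libraries were found by Pearson's r, as a description. The 18 points are 3 high and 15 near 0 and share their libraries, and 155 to 166 of 13601 genes reached an r over 0.99 with a member. Tcstv1 was closest to Pramef17, Tcstv3, Tdpoz3, Slc34a2 (a phosphate transporter) and A2m (alpha-2-macroglobulin). Tcstv3 was closest to Gm10697, Tdpoz5, Tcstv1, Pramef17 and the oocyte homeobox gene Obox2, with r from 0.9994 to 0.9997. AF067061 was closest to Zscan4a, Zscan4c, Oog4, Tmem132c and the deubiquitinase gene Usp17ld. Zfp352 was closest to Gm10697, Tdpoz5, Tcstv3, Pramef17 and Tcstv1, 4 of which are also among the 5 closest to Tcstv3. Gm10697 and Tdpoz5 had the same value in the table for both members and cannot be told apart.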

How the data were processed

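The deposited table holds whole-number counts per gene for 18 libraries, made by the authors from TruSeq polyadenylated RNA libraries, per the labels' protocols. The submitters' processing notes name CASAVA, TopHat2 2.0.12, Bowtie2 2.2.3 and mm10, and no source used here names the counting program, its use of strand or its treatment of shared reads. Members and lists were chosen with earlier results of these data known. Genes were filtered by edgeR 4.0.16 (filterByExpr, 13602 of 24028 tested), scaled by TMM and tested with quasi-likelihood F tests in 1 model of 6 group means, with Benjamini-Hochberg adjustment over all tested genes. Differences between responses are contrasts of that model. Low counts are given with exact 95% intervals or against a floor of 3 counts over a group. The floor stands in for 0 counts, so a fold against it is not a confidence limit. The alternatives were DESeq2 1.42.0, other scalings, no filter, a fit of the compared groups alone, summed Tcstv counts, a replicate block and leaving out each library. Same-numbered libraries of the mouse Dux line deviated together (correlations 0.4, 0.219 and 0.202), and those of the human DUX4 (-0.0449 to 0.0208) and luciferase lines (0.00774 to 0.0484) did not. Relatives were found with blastn 2.17.0 on GENCODE coding sequences, in place of the protein comparison planned. Genes named beside the members are the 5 highest of the 2-cell list, the 5 most alike per member, and neighbours called with a log2 change of at least 2 in size.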

Additional observations from a re-analysis of the deposited data

Results flagged for a closer look

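A direct test found that the responses of the lines differed for the following genes, as differences of log2 responses (edgeR quasi-likelihood test). Mouse Dux exceeded human DUX4 by 9.29 for Tcstv1, 10.13 for Tcstv3 and 10.03 for AF067061. Mouse Dux exceeded luciferase by 12.93 for Tcstv1, 12.75 for Tcstv3, 13.63 for AF067061 and 13.66 for Zfp352. Human DUX4 exceeded luciferase by 3.60 for AF067061 and 7.58 for Zfp352, from at most 10 counts in any group of those lines. In the zero-count groups (uninduced human DUX4 and induced luciferase for Zfp352) the fitted sizes depend on the prior count, so 13.66 and 7.58 are not measures of size. The luciferase part of 7.58 is an uncalled change from 4 counts to 0 (adjusted p = 0.131). Neither part of 3.60 was called alone: 1.98 after human DUX4 (adjusted p = 0.148) and -1.62 in luciferase (adjusted p = 0.157). That call was also lost in some fits that left out 1 library (adjusted p up to 0.168). The test for a single value far from its group was not run on groups of 3.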

How the results depend on the processing

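The mouse Dux response and its difference from luciferase kept direction and call for all 4 genes under every alternative, and no result reversed. That made 52 and 76 results, each counted per gene and alternative rather than per fit. The summed Tcstv result entered once for each Tcstv gene. Leaving out 1 library moved the mouse Dux response between 11.08 and 11.54 for Tcstv1, 11.39 and 12.71 for Tcstv3, 11.66 and 12.53 for AF067061 and 9.65 and 12.08 for Zfp352.

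The results with few counts changed. Summing the Tcstv genes gave a call for human DUX4 (2.08) and for human DUX4 minus luciferase (3.69), where Tcstv1 and Tcstv3 alone had none. Leaving out 1 library moved the human DUX4 response between 1.29 and 3.87 for Tcstv1 (never called), 1.03 and 4.51 for Tcstv3, 1.31 and 3.88 for AF067061 and 3.18 and 4.68 for Zfp352. Calls appeared without induced library 3 (2.21) or uninduced library 2 (4.51) for Tcstv3 and without induced library 2 (2.55) for AF067061. Likewise mouse Dux minus human DUX4 ran between 7.40 and 9.98 for Tcstv1, 7.45 and 10.94 for Tcstv3 and 8.12 and 10.69 for AF067061, and DESeq2 called it for Zfp352 (7.07). Human DUX4 minus luciferase ran between 2.37 and 5.53 for Tcstv1 (never called), 1.81 and 5.29 for Tcstv3, called without uninduced human DUX4 library 2, 2.93 and 5.50 for AF067061 and 6.40 and 8.15 for Zfp352. The cause was not tested, apart from groups left at 0 counts.

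The replicate block fits a shared effect per library number over all lines. For the mouse Dux response it gave 11.29 for Tcstv1, 11.97 for Tcstv3 and 10.20 for Zfp352. It changed no call of the 4 genes. Same-numbered libraries deviated together in the mouse Dux line alone, so the block does not model that line's pairing on its own. Over all genes, a fit of the luciferase groups alone called 3032 higher in place of 2004. Library size alone shifted the median log2 change after mouse Dux to -0.249 and the share of higher calls from 49.5% to 31.6%, while the 4 genes changed by at least 9.98.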
